A study of Mus musculus with 16 samples.

Results

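Pre-memory B cells (Fraction 6) were compared with pro-memory B cells (Fraction 5), the gate that precedes them in the sorting scheme, by RNA sequencing. Both gates hold spleen B cells that are CD38-positive, GL7-negative and high for the surface ligand Efnb1, and they were separated by a Bcl6-YFP reporter, which is high in Fraction 5 and low in Fraction 6. The members were the libraries labelled with these gates, 3 of Fraction 5 and 2 of Fraction 6, 5 of 16 libraries in all. The 3 libraries of Fraction 7, which is low for both Bcl6-YFP and Efnb1 and is labelled as mature memory, served for the next step, and the light zone (LZ), Fraction 2 (CD69 high) and Fraction 3 (CD69 low) gates, CD38-negative cells of the germinal centre high for CD86 and low for CXCR4, entered the fit. In every group the donor cells were naive B cells of C57BL/6 mice with the genotype Bcl6-YFP(KI/+) B1-8hi(KI/+), transferred into wild-type CD45.1+ recipients that were immunised with NP-CGG in alum. Cells of all gates were CD45.2+, bound NP, were CD138- and IgG1+, and were taken on day 10 from the pooled spleens of 9 recipients. All donor cells carry a knock-in receptor against the same hapten and 1 Bcl6 reporter allele, which limits them as a model of a mixed repertoire. The labels do not say whether libraries of a gate came from separate pools, so a p-value here reflects only how libraries of a gate vary, and that variation may be technical.

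B cells in a germinal centre divide, mutate their receptor genes and compete for help from T cells. Bcl6 is the transcriptional repressor that holds cells in the germinal centre programme, and S1pr2, a receptor for sphingosine-1-phosphate, keeps them confined there. Memory B cells leave this state, stop dividing and take up the surface receptors of recirculating cells, among them S1pr1, the receptor that guides lymphocytes out of lymphoid organs, under the control of the transcription factor Klf2.

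The deposited values are FPKM, fragments scaled to transcript length and to the library's total. In Fractions 5 and 6 between 10267 and 10412 genes reached 1 FPKM per library. Steps between the lowest values put their depth at 0.945 to 1.21 times that of the first LZ library, and the absolute number of fragments is unknown. Libraries of the same gate correlated at Pearson r of 0.951 to 0.960 on the log2 scale across genes, against 0.931 to 0.945 between the gates. Among transcripts of the sort genes, a fall of Bcl6 was built into the sort on its reporter. Efnb1 was lower in Fraction 6 although both gates were sorted as high for it, with values given below. Bcl6 itself was 191, 183 and 194 FPKM in the Fraction 5 libraries and 75.3 and 70.2 FPKM in those of Fraction 6, lower by a log2 difference of -1.37 ± 0.11 (SE, limma adjusted p = 1.7e-06). Cd38 was 48.2 to 49.2 FPKM in Fraction 5 and 75.3 and 76.4 FPKM in Fraction 6, so that the transcript rose between gates that were both sorted as positive. The B cell transcripts Cd74 and Cd79a showed no call (log2 differences of 0.01 and 0.16, adjusted p = 0.95 and 0.46). Of 9 listed B cell genes 2 were called higher in Fraction 6, Blk among them, and none lower, against 7.07% and 10.4% of all genes. In bulk samples, fewer cells of a type and less RNA per cell cannot be told apart.

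Log2(FPKM + 1) values of 11266 genes were tested with limma, and a call means a Benjamini-Hochberg adjusted p below 0.05 over all of them. In Fraction 6, 797 genes were higher (7.07% of those tested) and 1171 lower (10.4%) than in Fraction 5, 1968 in all (17.5%). Of these, 137 rose and 261 fell by more than 2-fold on this scale. The shares of 7.07% higher and 10.4% lower are the background for every list count of this step below. The median log2 difference over all tested genes was -0.0021. Without the first Fraction 6 library the count was 1139 and without the second 1164, and such a fit takes the spread of the remaining library from the other gates. From Fraction 6 to Fraction 7, 830 genes were higher (7.37%) and 1563 lower (13.9%), a split that became 1205 and 1470 with quantile normalization and 1073 and 1394 with median-ratio scaling. The total of 2393 was 1556 without the first Fraction 6 library and 1330 without the second. The difference between the steps, (Fraction 6 minus Fraction 5) minus (Fraction 7 minus Fraction 6), was called for 416 genes (3.69%). That number was 51 and 86 without the first or the second Fraction 6 library. Of 57 such differences among genes named here, 15 were called in every alternative that tested the gene, which "held" means below where it is said of a difference between the steps. Among these 15 are Mir1940, Mir20a and Snord91a, which passed the filter only through Fraction 6, and Efnb1, on which Fraction 7 was sorted. The differences of these genes were fixed in advance and support nothing. The steps share the Fraction 6 libraries, so their values are set side by side and no overlap is given.

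**Figure D1:**
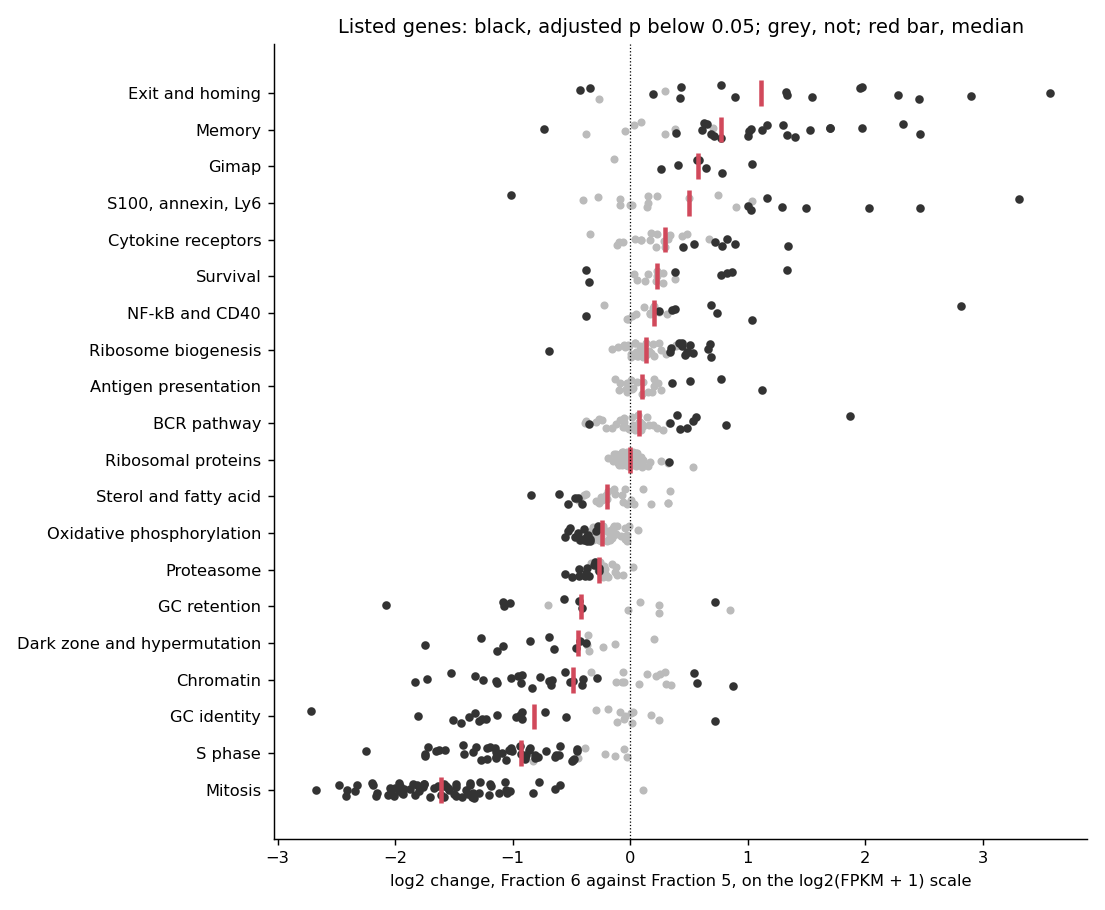
Log2 change of Fraction 6 against Fraction 5 on the log2(FPKM + 1) scale (x axis) for every tested member of 20 gene lists (rows, ordered by median). Black points passed an adjusted p of 0.05, grey points did not, and red bars are list medians, from -1.61 for mitosis to 1.11 for exit and homing.

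Genes of mitosis fell together. Of 67 genes listed for chromosome segregation, the spindle and cytokinesis, 66 were lower in Fraction 6, against a background of 10.4%, and none was higher. Their median log2 difference was -1.61, with a range from -2.67 to 0.11. Mki67, the nuclear protein used as a proliferation marker, was 65.9, 96.6 and 67.2 FPKM in Fraction 5 and 16.5 and 18.7 FPKM in Fraction 6 (log2 difference -2.04 ± 0.20, adjusted p = 1.1e-05). Both Fraction 6 values lay below all those of Fraction 5, and the means were 124 FPKM in Fraction 3 and 11.1 FPKM in Fraction 7. Cdc20, the activator of the anaphase-promoting complex, was 38.6, 50.3 and 44.1 FPKM against 5.92 and 8.42 FPKM (-2.48 ± 0.22, adjusted p = 5.1e-06). Ube2c, the ubiquitin-conjugating enzyme of that complex, was 57.5, 72.8 and 62.3 FPKM against 12.6 and 9.99 FPKM (-2.41 ± 0.19). For each of these genes both Fraction 6 libraries lay far below the lowest Fraction 5 library. Plk1, the polo-like mitotic kinase, went from a mean of 29.0 ± 3.0 FPKM (SD, n = 3) to 4.90 ± 0.23 FPKM (SD, n = 2). Birc5 (survivin) and Incenp, both of the chromosomal passenger complex, fell by 2.42 and 1.55 on the log2 scale. The kinesin Kif20a, which acts in cytokinesis, was 13.2, 17.9 and 13.2 FPKM against 2.55 and 2.43 FPKM. Cdkn3, a phosphatase of cyclin-dependent kinases, was among the 12 largest falls at -2.67 ± 0.22, as was Stmn1 (stathmin), a microtubule-destabilising protein, at -2.43 ± 0.16. The exception was Pttg1 (securin), at 19.0 ± 3.7 and 20.4 ± 0.60 FPKM (log2 difference 0.11, adjusted p = 0.77).

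The median fall of the mitosis genes was larger at this step than at the next. From Fraction 6 to Fraction 7 the list's median was -0.58, with 43 of 67 genes lower (background 13.9%), and 12 without the second Fraction 6 library. The difference between the steps was called for 28 of the 67 (background 3.69%), and in all 28 the change from Fraction 5 to Fraction 6 was the more negative. That count was 2 and 8 without the first or the second Fraction 6 library. Kif20a, for example, stood at 2.04 FPKM in Fraction 7 (log2 difference from Fraction 6 of -0.20, adjusted p = 0.30), and its steps differed (adjusted p = 5.6e-04, held). Cdc20 and Ube2c were at 4.51 and 7.66 FPKM in Fraction 7.

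Promoters of 53 of the 67 mitosis genes were in the RefSeq table for mouse build GRCm38.p6, which is another build than that of the files and was used for sequence only. The letters TTTGAA or TTCGAA, on either strand, are those of the cell cycle homology region known from promoters of late cell cycle genes. They occurred between 250 bases before and 50 after the start in 44 of 56 mitosis promoters (78.6%), in 12 of 52 S phase promoters (23.1%), in 3 of 16 promoters of exit and homing genes (18.8%) and in 19.2% of all 32851 promoters of that length. They were in 14.6% of the 11122 promoters of tested genes, in 20.8% of those of the genes called lower and in 14.6% of those of the genes called higher. CCAAT on either strand was in 73.2% of mitosis promoters, 57.7% of S phase promoters and 37.4% of all. Within 60 bases before to 20 after the start, a window chosen after the positions were seen, 29 of 56 mitosis promoters held the first pair of letters (51.8%) against 4.8% of all. The stretches from 80 bases before to 20 after the start are shown for Cdc20, Ube2c and Ckap2l (a spindle protein), as examples that hold the letters close to the start, and for Birc5 as one that does not. Capitals mark TTTGAA or TTCGAA or their reverse complements, and each is written 5′ to 3′ on the gene's strand.
Cdc20 (chr4:118437324-118437423, minus strand): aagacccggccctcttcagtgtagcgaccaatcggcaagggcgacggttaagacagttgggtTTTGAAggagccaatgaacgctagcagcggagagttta
Ube2c (chr2:164769849-164769948, plus strand): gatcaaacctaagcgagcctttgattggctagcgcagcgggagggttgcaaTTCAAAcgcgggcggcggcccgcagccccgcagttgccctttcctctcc
Ckap2l (chr2:129297193-129297292, minus strand): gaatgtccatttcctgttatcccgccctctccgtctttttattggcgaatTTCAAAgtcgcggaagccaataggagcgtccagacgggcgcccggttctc
Birc5 (chr11:117849157-117849256, plus strand): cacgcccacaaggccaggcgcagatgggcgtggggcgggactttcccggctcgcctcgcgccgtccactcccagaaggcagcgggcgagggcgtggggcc
The letters begin 18 bases before the start in Cdc20, 29 in Ube2c and 30 in Ckap2l. A match describes the sequence only. Ckap2l was 13.1, 20.1 and 13.5 FPKM in Fraction 5 and 2.00 and 2.51 FPKM in Fraction 6, and Birc5, without the letters in its promoter, was 46.2, 68.5 and 48.6 FPKM against 7.82 and 10.8 FPKM.

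DNA replication genes were mostly lower too. Of 52 S phase genes 45 were lower and none higher, with a median log2 difference of -0.93. Lig1, the replicative DNA ligase, was 32.4, 37.8 and 35.3 FPKM in Fraction 5 and 10.1 and 9.43 FPKM in Fraction 6 (-1.75 ± 0.08, adjusted p = 1.7e-08). Pcna, the sliding clamp of DNA polymerase, went from 177 ± 24 to 78.9 ± 1.5 FPKM, and Mcm7, a subunit of the replicative helicase, from 58.2 ± 6.4 to 22.7 ± 1.3 FPKM. Pcna and Mcm7 were already lower in Fraction 5 than in Fraction 3, where Pcna was at 403 FPKM and Mcm7 at 130 FPKM. That comparison was not tested. From Fraction 6 to Fraction 7, 34 of the 52 were lower (background 13.9%), with a median of -0.59. The steps differed for 10 of them (background 3.69%), 9 with the more negative change at the first step. These 9 became 1 and 3 without the first or the second Fraction 6 library, and the difference for Lig1 held (adjusted p = 5.8e-04).

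Regulators of the G1 phase moved in both directions, against a background of 10.4% lower and 7.07% higher. Of 24 tested, 11 were lower and 4 higher, and the 4 became 1 without the second Fraction 6 library. The D-type cyclins, which drive entry into the cell cycle, went opposite ways. Ccnd3 was 155, 170 and 157 FPKM in Fraction 5 and 62.2 and 60.0 FPKM in Fraction 6 (-1.38 ± 0.08, adjusted p = 2.1e-07). Ccnd2 was 6.25, 8.13 and 4.55 FPKM against 16.7 and 15.4 FPKM (1.25 ± 0.17, adjusted p = 1.7e-04). The libraries did not overlap for either cyclin, as for 47.9% of all tested genes. Ccnd3 remained the more abundant per length in Fraction 6. The repressors E2f7 and E2f8 fell by 1.42 and 1.83, while Cdkn1b, the inhibitor p27, rose from 19.0 ± 1.5 to 29.8 ± 4.3 FPKM, a call lost without the second Fraction 6 library (adjusted p = 0.12). Myc, the growth regulator, was 14.2, 14.6 and 18.7 FPKM in Fraction 5 and 23.2 and 25.5 FPKM in Fraction 6 (0.60 ± 0.13, adjusted p = 0.0068), a call that was lost without the second Fraction 6 library (adjusted p = 0.077).

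Many chromatin genes were lower as well. Of 37 tested, 22 were lower and 3 higher, with a median of -0.49. The background was 10.4% lower and 7.07% higher, and the number of higher genes was close to it. H2afx, the histone variant phosphorylated at DNA breaks, was 140, 156 and 153 FPKM against 40.7 and 41.7 FPKM (-1.83 ± 0.07, adjusted p = 2.7e-09). The nucleosome-binding proteins Hmgb2 and Hmgn2 went from 173 ± 25 and 310 ± 44 FPKM to 51.2 ± 4.7 and 106 ± 6.3 FPKM. Dnmt1, the maintenance DNA methyltransferase, and Ezh2, the Polycomb methyltransferase needed in germinal centre cells, were lower by 1.14 and 0.92 on the log2 scale. Those that rose were Tet2 (0.87 ± 0.14), an enzyme that oxidises methylcytosine, Dnmt3a (0.57 ± 0.10), a de novo methyltransferase, and the chromatin organiser Satb1 (0.54 ± 0.12). The call of Satb1 was lost without the second Fraction 6 library (adjusted p = 0.074). H1fx, a linker histone, showed the largest fall outside the small RNA genes, from 27.4 ± 1.9 to 2.94 ± 0.51 FPKM (-2.85 ± 0.15).

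The germinal centre identity programme was lower in part. Of 28 genes, 16 were lower and 1 higher, against a background of 10.4% and 7.07%, with a median log2 difference of -0.82. Bcl6, on whose reporter the gates were sorted, is among the 16. Gcet2 (germinal centre expressed transcript 2), an adaptor of germinal centre B cells, was 32.7, 42.9 and 34.2 FPKM in Fraction 5 and 4.42 and 4.93 FPKM in Fraction 6 (-2.72 ± 0.12, adjusted p = 9.9e-09). In Fraction 7 it was at 0.518 FPKM. Mef2b, an activator of Bcl6 transcription, was 182, 165 and 178 FPKM against 76.8 and 68.3 FPKM, and Mybl1, a Myb family factor of germinal centre cells, was 126, 118 and 122 FPKM against 52.9 and 50.1 FPKM. In all of these the Fraction 6 libraries were below every Fraction 5 library and, apart from Gcet2, at more than 50 FPKM. Pou2af1, the B cell coactivator OBF1, and Bach2, a repressor of plasma cell differentiation, fell by 0.94 and 0.72. Genes of the list with no call at this step included Cd83, a light zone surface protein, at 307 ± 24 and 310 ± 3.3 FPKM, and Il21r, the interleukin-21 receptor, at 119 ± 4.7 and 110 ± 9.2 FPKM. Tnfrsf1b, the single member that was higher, was not called when either Fraction 6 library or the first Fraction 5 library was left out. Of 16 genes for the dark zone and hypermutation 10 were lower and none higher, among them Polh, the error-prone polymerase eta (-1.27 ± 0.16), and Xrcc1, a scaffold of base repair (-0.65 ± 0.10).

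For part of this programme the larger fall came at the next step. The background was 13.9% lower at that step and 3.69% for differences between the steps. From Fraction 6 to Fraction 7, 21 of the 28 identity genes were lower, with a median of -1.09, and the steps differed for 7 of them, a number that became 2 and 4 without the first or the second Fraction 6 library. Mybl1 fell by a further 3.07 to 5.40 FPKM, Mef2b by 3.12 to 7.90 FPKM and Gm600 (Nuggc, a nuclear GTPase of germinal centre cells) by 2.91 to 4.19 FPKM, each with a difference between the steps (adjusted p = 0.0029, 0.027 and 1.8e-04). The difference held for Gm600, was lost for Mybl1 without the first Fraction 6 library, and was lost for Mef2b without either of them or without the second Fraction 5 library. That of Mef2b was also lost with no filter, with the compared groups alone and with a replicate block. Cd83 and Il21r fell at that step to 108 and 57.1 FPKM, and for Cd83 the difference between the steps held (adjusted p = 2.6e-04). Pou2af1 went the other way, with the larger fall from Fraction 5 to Fraction 6 (adjusted p of the difference 0.020, lost without either Fraction 6 library).

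Some genes that hold cells in the germinal centre were lower, against a background of 10.4% lower and 7.07% higher. Of 14 genes listed for retention, 7 were lower and 1 higher, and the 7 became 4 without the second Fraction 6 library. S1pr2 was 153, 148 and 153 FPKM in Fraction 5 and 34.7 and 35.6 FPKM in Fraction 6 (-2.08 ± 0.11, adjusted p = 5.8e-08), and 4.27 FPKM in Fraction 7. Gna13, the G protein that S1pr2 signals through, went from 48.4 ± 0.91 to 36.3 ± 0.63 FPKM, a call that did not hold when either Fraction 6 library was left out (highest adjusted p = 0.073). Cxcr4, the receptor that places cells in the dark zone, was 66.6, 77.5 and 69.4 FPKM against 28.3 and 38.4 FPKM (-1.09 ± 0.14). Efnb1, an ephrin ligand of germinal centre B cells, was 67.2, 57.9 and 67.5 FPKM against 32.4 and 27.5 FPKM (-1.08 ± 0.11), although both gates were sorted as high for the protein. It was 2.15 FPKM in Fraction 7, the gate sorted as low. The called difference between its steps (adjusted p = 8.8e-05) was built into that sort and is not a result. The receptor gene Ccrl1, a scavenger of chemokines, was among the 12 largest falls of the table, from 8.72, 11.6 and 8.98 FPKM to 0.862 and 1.12 FPKM (-2.43 ± 0.16). Sema4a, the single gene of the list that was higher, reached 1.07 FPKM in Fraction 6 and lost its call when any library but the third of Fraction 5 was left out.

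Most genes for exit from lymphoid tissue and homing rose. Of 18 listed genes 14 were higher, against a background of 7.07%, and 2 were lower, and the median was 1.11. S1pr1 was 4.08, 3.10 and 5.32 FPKM in Fraction 5 and 32.5 and 42.1 FPKM in Fraction 6 (2.90 ± 0.19, adjusted p = 4.4e-07). Klf2 was 36.8, 29.0 and 40.0 FPKM against 160 and 187 FPKM (2.28 ± 0.19, adjusted p = 2.4e-06). For these genes both Fraction 6 libraries lay far above the highest Fraction 5 library. Ccr6, the receptor for the chemokine Ccl20 and a marker of memory precursors, was 22.5, 29.1 and 21.6 FPKM against 96.2 and 99.4 FPKM (1.97 ± 0.14). Klf3, a repressor of the same factor family as Klf2, was 1.62, 2.30 and 1.72 FPKM against 13.4 and 16.2 FPKM. Ccr7, the receptor that draws cells to the T cell zone, reached 7.24 ± 0.66 FPKM from 1.17 ± 0.55 FPKM. Gpr183, the oxysterol receptor EBI2 that positions B cells at follicle edges, went from 14.6 ± 0.76 to 38.1 ± 0.054 FPKM, and the integrin chain Itgb7 from 29.1 ± 0.70 to 87.3 ± 14 FPKM. The 2 lower genes, the integrin chain Itgb2 (-0.34 ± 0.08) and the transcription factor Foxo1 (-0.43 ± 0.13), both lost their calls without the second Fraction 6 library. That of Foxo1 was also lost without the first one, or without the first or the second Fraction 5 library. It was lost as well with quantile normalization, with no filter and with the compared groups alone.

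**Figure D2:**
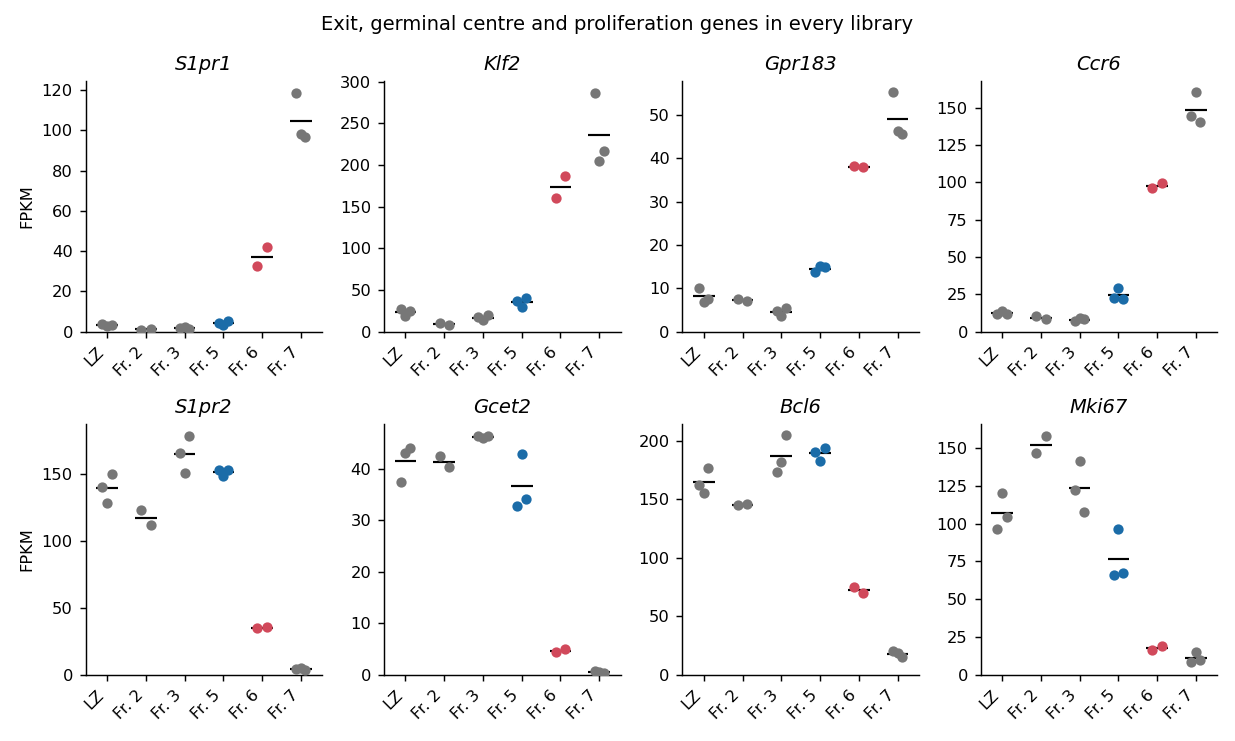
FPKM (y axis, linear, from 0) of 8 genes in every library of the 6 gates (x axis), with points for libraries and black bars for gate means. Fraction 6 (red) lies above Fraction 5 (blue) for S1pr1, Klf2, Gpr183 and Ccr6 and below it for S1pr2, Gcet2, Bcl6 and Mki67, without overlap.

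The rise of several exit genes was larger at the first step than at the next. Klf2 stood at 236 FPKM in Fraction 7, a difference from Fraction 6 that was not called (0.43, adjusted p = 0.13), and the steps differed (adjusted p = 0.0086). The steps also differed for S1pr1, Klf3 and Ccr6, with the larger rise at the first (adjusted p = 0.036, 0.033 and 0.010). None of these 4 differences was called when either Fraction 6 library was left out, and those of S1pr1 and Klf3 also failed without the first Fraction 5 library or the second or the third of Fraction 7, that of S1pr1 without the second of Fraction 5 and that of Klf3 without the third. Those of S1pr1 and Klf3 were also lost with a pseudocount of 0.1, with no filter and with the compared groups alone, and that of S1pr1 with a replicate block. Cxcr3, a receptor for inflammatory chemokines, rose more at the next step, at 2.51 ± 0.56, 5.00 ± 1.2 and 35.3 FPKM in Fractions 5, 6 and 7 (adjusted p of the difference 0.015, lost without either Fraction 6 library). Its first step was not called without the second Fraction 5 or the second Fraction 6 library. Ccr7 rose again from Fraction 6 to Fraction 7, to 42.2 FPKM, with no called difference between the steps (adjusted p = 0.73).

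**Figure D3:**
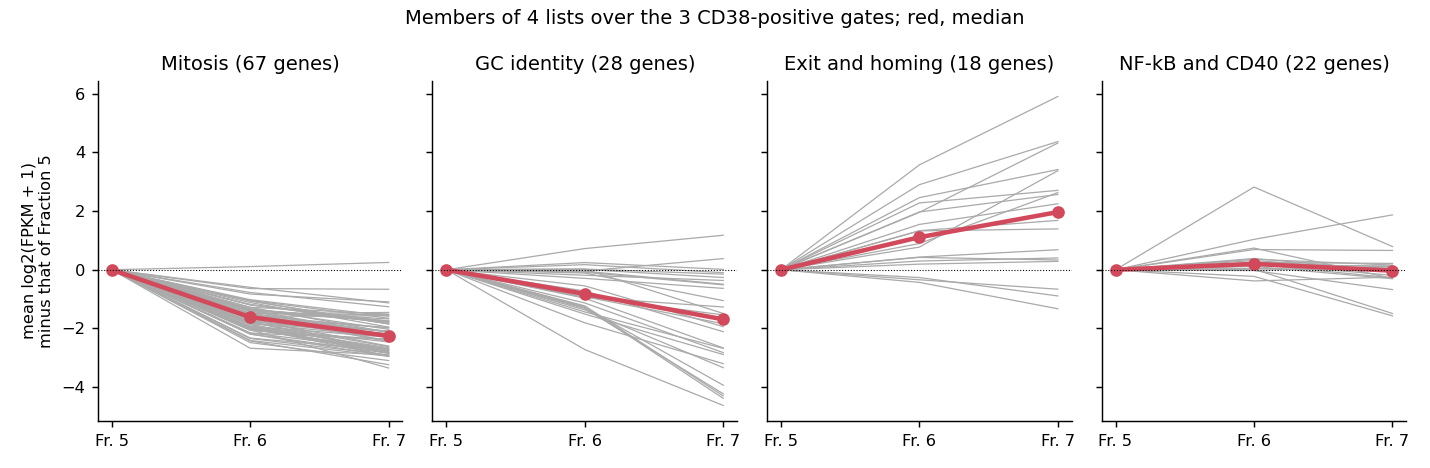
Mean log2(FPKM + 1) relative to Fraction 5 (y axis) in Fractions 5, 6 and 7 (x axis) for members of 4 lists (grey lines, 1 per gene) with the median in red. The medians fall from 0 by 1.61 at the first step for mitosis and by 0.82 for GC (germinal centre) identity and rise by 1.11 for exit and homing, and that of the NF-kB and CD40 list is highest in Fraction 6.

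Genes known from memory B cells were mostly higher. Of 29 listed, 21 rose and 1 fell, with a median of 0.77. Cd55, a complement regulator, was 5.04, 7.13 and 7.93 FPKM in Fraction 5 and 24.0 and 34.4 FPKM in Fraction 6 (1.97 ± 0.19, adjusted p = 1.1e-05). Hhex and Tle3, a transcription factor and a corepressor of memory formation, went from 18.9 ± 3.6 and 15.1 ± 1.5 FPKM to 51.2 ± 3.0 and 25.3 ± 0.66 FPKM. Cmah, a sialic acid hydroxylase, was 20.9, 22.4 and 23.2 FPKM against 45.4 and 56.7 FPKM. The ligands Pdcd1lg2 (PD-L2) and Cd80, which mark subsets of memory B cells, rose by 0.65 ± 0.16 and 0.77 ± 0.18, and both calls were lost without the second Fraction 6 library (adjusted p up to 0.084 for Pdcd1lg2 and 0.094 for Cd80), that of Pdcd1lg2 also without the first. The member that fell was Cd24a, a surface glycoprotein, from 307 ± 29 to 184 ± 7.3 FPKM. Several regulators of late memory were still low in Fraction 6. Bhlhe41, a repressor of the circadian family, was 0.159, 0 and 0.304 FPKM in Fraction 5, 3.63 and 6.08 FPKM in Fraction 6 and 71.3 FPKM in Fraction 7, and Zbtb32, a repressor of secondary responses, was at 1.04, 5.69 and 45.1 FPKM in the same order.

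Growth-restraining genes rose in part, against a background of 7.07% higher and 10.4% lower. Of 21 tested genes of quiescence 9 were higher and 2 lower, with a median of 0.14, and the 9 became 4 without the second Fraction 6 library. Tsc22d3, a glucocorticoid-induced regulator, was 10.6, 9.70 and 10.4 FPKM against 21.5 and 26.3 FPKM (1.14 ± 0.17), and Pik3ip1, an inhibitor of PI3-kinase, went from 3.56 ± 0.41 to 8.28 ± 0.49 FPKM. Foxp1, a transcription factor of resting lymphocytes, was 23.1, 24.2 and 25.9 FPKM against 36.8 and 40.4 FPKM (0.64 ± 0.11). Cdkn2c, the cell cycle inhibitor p18, fell from 30.4 ± 3.6 to 10.1 ± 2.5 FPKM.

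Some surface and cytoskeletal genes rose at this step and more at the next. Of 23 genes of the S100, annexin and Ly6 group, 8 were higher and 1 lower at this step (median 0.50), and 15 were higher and none lower at the next (median 0.96). The background was 7.07% higher and 10.4% lower at this step and 7.37% and 13.9% at the next. Anxa6, a calcium-dependent membrane-binding protein, was 45.6, 40.6 and 56.7 FPKM against 118 and 154 FPKM, and Lgals3 (galectin 3) was 0.493, 1.46 and 1.39 FPKM against 6.58 and 8.37 FPKM. The Fraction 6 libraries differed from each other for Plac8 and S100a10. Plac8 was 13.6 and 45.3 FPKM in the first and second Fraction 6 library, 2.74 to 6.16 FPKM in Fraction 5 and 396 FPKM in Fraction 7. S100a10, the annexin partner, was 13.4 and 35.1 FPKM, with 0.397 to 2.82 FPKM in Fraction 5 and 235 FPKM in Fraction 7, and its call did not hold without the second Fraction 6 library (adjusted p = 0.052). Anxa2, which binds S100a10, was the member that fell (-1.01 ± 0.18). Of 8 tested Gimap genes, GTPases of lymphocyte survival, 7 were higher, led by Gimap4 at 140, 156 and 143 FPKM against 281 and 322 FPKM, and the 7 became 4 without the second Fraction 6 library. Of 25 cytokine receptor genes 7 were higher and none lower, among them Il6ra (1.34 ± 0.15), Il10ra (0.82 ± 0.15) and Il10rb (0.78 ± 0.11), chains of the receptors for interleukins 6 and 10.

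Outside the lists, the largest rises included Pml, the protein that organises nuclear bodies, at 1.04, 1.44 and 1.99 FPKM against 14.8 and 18.6 FPKM (2.84 ± 0.25, adjusted p = 4.7e-06). It went on to 110 FPKM in Fraction 7. Arhgef18, a guanine nucleotide exchange factor, was 5.36, 4.75 and 6.69 FPKM against 32.0 and 38.9 FPKM (2.47 ± 0.14, adjusted p = 1.0e-07). Its rise was larger at the first step (adjusted p of the difference 0.0019, lost without the second Fraction 6 library). The gene 1190002H23Rik was 4.07, 7.41 and 6.77 FPKM in Fraction 5 and 0.0888 and 0.0814 FPKM in Fraction 6, below its level in any other library of the CD38-positive gates.

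A few survival genes rose. Of 17 tested, 5 were higher and 2 lower, against a background of 7.07% and 10.4%, with a median of 0.23. Bcl2, the anti-apoptotic founder of its family, was 2.81, 2.48 and 2.66 FPKM in Fraction 5 and 8.34 and 8.09 FPKM in Fraction 6 (1.34 ± 0.23), and 18.8 FPKM in Fraction 7. The anti-apoptotic paralogs Bcl2a1a, Bcl2a1b and Bcl2a1d rose and then fell. Bcl2a1b was 50.7, 55.8 and 52.1 FPKM, then 80.9 and 102 FPKM, and was 39.3 FPKM in Fraction 7, with a difference between the steps (adjusted p = 1.8e-04, held for all 3 genes). Bcl2a1a and Bcl2a1d moved likewise, from 18.2 ± 1.5 and 30.0 ± 3.2 FPKM to 33.0 ± 4.2 and 55.6 ± 7.5 FPKM and back to 15.2 and 25.3 FPKM. These copies are near-identical and may share reads, so their separate values are uncertain. Bcl2l1 (Bcl-xL) was at 7.45, 9.13 and 3.65 FPKM in the 3 gates, with no call at the first step (adjusted p = 0.34). The members that fell were Traf1 and Pim1, signalling genes of survival pathways, and neither was called without the first Fraction 6 library, nor Pim1 without the second or the third Fraction 5 library. Of 22 apoptosis genes 5 were lower and none higher.

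Among listed components and targets of NF-kB and CD40 signalling, 7 of 22 were higher and 1 lower, with a median of 0.20. The 7 became 4 without the first Fraction 5 library and 3 without the third Fraction 5 library or without either Fraction 6 library, and were 11 with quantile normalization. Ccl22, a chemokine that attracts T cells, was 0.681, 0.221 and 0.0461 FPKM in Fraction 5, 9.28 and 7.06 FPKM in Fraction 6 and 1.39 FPKM in Fraction 7, with a difference between the steps (adjusted p = 0.0014) that was lost without the first Fraction 6 library. Nfkbid, a nuclear inhibitor-like protein of NF-kB, was 15.0, 13.9 and 17.4 FPKM, then 24.1 and 28.7 FPKM, and 12.4 FPKM in Fraction 7 (adjusted p of the difference 0.0013, held). Both genes were highest in Fraction 6 among the CD38-positive gates, with no library of Fraction 5 or 7 above either of its libraries. At the next step 9 of the 22 were lower and 1 higher (background 13.9% and 7.37%), with a median of -0.25. The steps differed for 7 (background 3.69%), each with the more positive change first. These 7 became 4 without the first Fraction 5 or the third Fraction 7 library, and 2 and 3 without the first or the second Fraction 6 library. Irf4, a factor of activated B cells and plasma cells, rose at both steps, at 4.88 ± 0.20, 11.1 ± 1.3 and 20.5 FPKM. Egr3 and Zfp318, which follow, are not in this list but in those of early activation and memory. Egr3, an immediate early gene of receptor signalling, was 10.2, 9.61 and 12.9 FPKM, then 18.2 and 21.0 FPKM, and 7.99 FPKM in Fraction 7, and its first step was not called without either Fraction 6 library or without the first or the second Fraction 5 library (highest adjusted p = 0.20). Zfp318, a zinc finger protein of resting mature B cells, was 5.94, 6.41 and 4.52 FPKM, then 18.1 and 17.8 FPKM, and 10.3 FPKM in Fraction 7, and its steps differed (adjusted p = 8.8e-04, held).

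**Figure D4:**
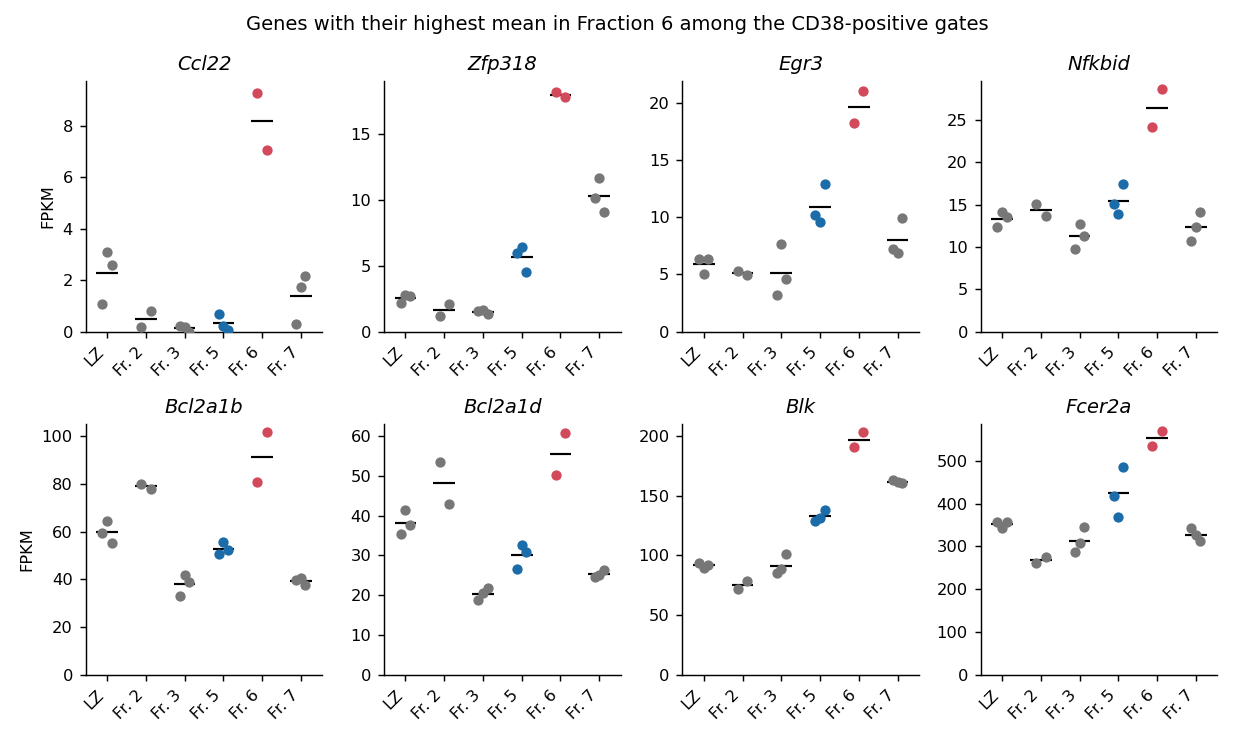
FPKM (y axis, linear, from 0) in every library (points) with gate means (black bars) for 8 genes whose mean among Fractions 5, 6 and 7 is highest in Fraction 6 (red), chosen after their values were seen. Among all 6 gates Fraction 6 also has the highest mean for each.

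Genes of the B cell receptor pathway and of antigen presentation moved little at this step. The background was 7.07% higher and 10.4% lower. Of 42 tested receptor pathway genes 8 were higher and 1 lower, with a median of 0.07, and the 8 became 5 and 4 without the first or the second Fraction 6 library. The inhibitory receptor Fcrl5 was 1.96, 2.38 and 1.06 FPKM in Fraction 5 and 8.65 and 9.38 FPKM in Fraction 6 (1.87 ± 0.26). Blk, a Src family kinase of B cells, was 129, 132 and 138 FPKM, then 191 and 203 FPKM, and 162 FPKM in Fraction 7. At the next step 22 of the 42 were lower and 4 higher (background 13.9% and 7.37%), with a median of -0.27. Syk, the kinase that starts receptor signalling, was at 185 ± 8.6, 216 ± 10 and 153 FPKM (first step adjusted p = 0.091, difference between the steps adjusted p = 0.020, lost without either Fraction 6 library). Of 22 antigen presentation genes 4 were higher and none lower, and the 4 became 1 without the second Fraction 6 library. Ifi30, a lysosomal thiol reductase, was 507, 475 and 546 FPKM against 682 and 768 FPKM and 469 FPKM in Fraction 7, and its first call was lost without the second Fraction 6 library (adjusted p = 0.12). Ciita, the master regulator of MHC class II, was 171 ± 4.1 and 190 ± 12 FPKM with no call at this step (adjusted p = 0.17) and 113 FPKM in Fraction 7. Fcer2a, the low-affinity IgE receptor CD23, was 418, 370 and 484 FPKM, then 536 and 570 FPKM, and 328 FPKM, and its first call did not hold when either Fraction 6 library or the second Fraction 5 library was left out.

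Metabolic lists had small medians, and the background for their counts was 7.07% higher and 10.4% lower. Of 59 oxidative phosphorylation genes 17 were lower and none higher (median -0.24), with 5 lower without the first Fraction 6 library. Of 31 proteasome genes 14 were lower and none higher (median -0.27), with 8 lower without the second Fraction 5 or the second Fraction 6 library and 5 without the first Fraction 6 library. Atp5a1, a subunit of ATP synthase, was 198, 225 and 220 FPKM against 161 and 163 FPKM. No member of either list fell by more than 0.56 on the log2 scale. Of 47 ribosome biogenesis genes 13 were higher and 1 lower (median 0.13), and the 13 became 7 without the first Fraction 5 or the first Fraction 6 library and 3 without the second Fraction 6 library. Polr1b, a subunit of RNA polymerase I, went from 4.82 ± 0.63 to 8.27 ± 0.20 FPKM. Of 74 ribosomal protein genes 1 was higher and none lower, a share below the background, and the list's median was -0.0033. Of 24 glycolysis genes 3 were higher and 3 lower, close to the background, so the genes that follow are no result about the list. Gapdh and Pgk1, enzymes of the pathway, fell, Gapdh from 566 ± 28 to 389 ± 2.9 FPKM and Pgk1 from 95.0 ± 0.99 to 71.6 ± 2.6 FPKM, while the glucose transporter Slc2a3 rose from 6.35 ± 0.86 to 10.7 ± 0.61 FPKM and the hexokinase Hk2 from 2.30 ± 0.21 to 4.11 ± 0.11 FPKM. Of 34 genes tied to mTORC1, 2 were higher and 6 lower, and 2 were lower without the first Fraction 6 library and none was higher without the second. Of 30 sterol and fatty acid synthesis genes 6 were lower and none higher, with 3 lower without the second or the third Fraction 5 library and 1 without the first Fraction 6 library.

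The remaining lists moved in few members, and the background for their counts was 7.07% higher and 10.4% lower. List counts of 1 or 2 rested on single libraries: each fell by at least 1 when some library of Fraction 5 or 6 was left out, apart from the single lower genes Cd24a, Anxa2 and Pik3ap1 (an adaptor of PI3-kinase in the receptor pathway). Of 33 interferon-stimulated genes 5 were higher and none lower, a number that was 1 without the third Fraction 5 library or the first Fraction 6 library and 3 without the second, and Ddx58, the RNA sensor RIG-I, was 3.81, 4.35 and 3.12 FPKM against 10.4 and 10.4 FPKM. Of 19 early activation genes 6 were higher and 2 lower, and the 6 became 2 without the second Fraction 6 library. Of 31 lysosome and autophagy genes 6 were higher and 2 lower, with 3 higher without the first Fraction 5 or the second Fraction 6 library, and Psap, the precursor of the saposins, rose from 195 ± 9.5 to 288 ± 28 FPKM. Of 23 plasma cell genes 3 were higher and 3 lower, close to the background, so the genes that follow are no result about the list. Pdia4, an oxidoreductase of the endoplasmic reticulum, rose from 35.6 ± 3.1 to 60.7 ± 1.8 FPKM, and 2010001M09Rik (Mzb1), a chaperone of antibody secretion, fell from 280, 294 and 300 FPKM to 192 and 189 FPKM.

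Markers of other cells were measured beside these changes. Cd3e, Cd14 and Gzma, markers of T cells, monocytes and cytotoxic cells, were listed at 0 in all libraries of Fractions 5, 6 and 7. Some other members of the lists were low but not all at 0, and others were not low, as the sums below show. In the order of Fractions 5, 6 and 7, Cd3d of the T cell list was 0.105 to 0.799, 0.356 to 0.404 and 0.328 to 0.683 FPKM. Cd8a was 0 to 0.166, 0.164 to 0.190 and 0.282 to 0.758 FPKM. Csf1r of the myeloid list was 0.0806 to 0.0877, 0 to 0.482 and 0.186 to 0.528 FPKM. The summed level of 14 T cell genes was 167.4 to 168.9 FPKM in Fraction 5 and 164.9 to 202.2 FPKM in Fraction 6, and none of the 5 tested was called. That of 9 erythroid genes was 87.25 to 220.5 FPKM and 97.46 to 123.4 FPKM in the same order, and none of the 5 tested was called. The sum of 16 myeloid genes was 32.42 to 49.96 FPKM and 48.37 to 57.78 FPKM, with 3 of 8 tested members higher, among them Mpeg1, a pore-forming protein, from 16.1 ± 4.5 to 25.7 ± 2.2 FPKM, which lost its call without either Fraction 6 library or the third of Fraction 5. The others were Itgam and Emr1, the myeloid integrin CD11b and the macrophage marker F4/80, higher by 0.93 and 0.90 on the log2 scale, with Itgam at 0.649 and 1.53 FPKM in Fraction 6, and neither was called without the second Fraction 6 library. Tyrobp, a signalling adaptor of myeloid and NK cells in none of these lists and chosen after its values were seen, was 0.531, 1.30 and 1.63 FPKM in Fraction 5, 6.09 and 5.58 FPKM in Fraction 6 (1.70 ± 0.43, adjusted p = 0.014) and 8.06 to 13.3 FPKM in Fraction 7, and was not called without either Fraction 6 library (adjusted p up to 0.093). Lyz2, the lysozyme of myeloid cells, was 5.70 and 1.08 FPKM in Fraction 6 and at most 1.11 FPKM in Fraction 5, and was not called (adjusted p = 0.17). Sdc1 (CD138), on which plasma cells were gated out, was at most 0.234 FPKM in Fraction 5 and 0.162 FPKM in Fraction 6. The sum of 8 plasma cell markers was 423.8 to 465.8 FPKM in Fraction 5 and 274.2 to 280.9 FPKM in Fraction 6, and that of 9 naive and marginal zone B cell genes, Fcer2a among them, was 603.9 to 743.6 FPKM and 848.7 to 906.8 FPKM. The sum of 12 stromal genes was 72.38 to 81.84 FPKM and 89.5 to 98.77 FPKM. These last 3 sums did not overlap between the gates. The part of the myeloid, plasma cell, naive and stromal genes in the rises and falls above was not tested.

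Among the 12 largest rises by the naming rule were 4 genes for small RNAs. Mir1940 was listed at 41.9 and 41.7 FPKM in the Fraction 6 libraries and at 0 or under 1.0e-05 FPKM in Fractions 5 and 7. Mir20a was 20.4 and 38.0 FPKM, Mir1186 was 12.6 and 13.5 FPKM and Snord91a was 450 and 219 FPKM in Fraction 6, and all 3 were listed at 0 in every Fraction 5 library, so no fold is given. Mir1186 was also 54.0 and 26.6 FPKM in Fraction 2. The other 3 were at or near 0 in every library outside Fraction 6 and passed the filter only through its 2 libraries, so a difference was bound to follow and their calls support nothing. The protocol in the labels names no selection of small RNAs, and the values of such short genes are uncertain. Of 183 small RNA genes tested 8 were called, and without them the count of changed genes was 2031. The libraries of Fractions 5 and 6 did not overlap for 5401 of all 11266 genes (47.9%). This is the background for statements above on single genes between these gates. None was computed for the summed lists or for comparisons with other gates.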

How the data were processed

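RNA was extracted with TRIzol and libraries were made with a NEBNext Ultra kit, per the labels' protocols. The kit name gives no strand marking, so overlapping antisense genes may share reads. Per the submitters' processing notes, the authors used TopHat2 2.0.8, Cufflinks 2.1.1 and mm9, and the deposited values are FPKM for 23234 named genes (1 unnamed row left out). The FPKM are not counts, so no count test was used.

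The test took in every gene that reached 1 FPKM in 2 or more of 16 libraries. limma 3.58.1 (R 4.3.3) fitted log2(FPKM + 1) with 6 group means and a trend on mean expression, and p-values were Benjamini-Hochberg adjusted per contrast over all tested genes (threshold 0.05). A log2 difference on this scale understates the change of low genes. The errors after log2 differences are SE, those after FPKM means are SD (n = 3 for Fraction 5, n = 2 for Fraction 6), and a single FPKM value for a group is its mean. On simulated data the fit of Fraction 6 against Fraction 5 over 11266 genes recovered 49%, 94% and 98% of 68, 66 and 66 genes changed by log2 0.5, 1 and 2, with 0 of wrong sign and 7 unchanged genes called. These are far fewer changed genes than the 1968 called in the data, so the rates may not carry over.

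Genes were named by rule: 12 rises and 12 falls, the largest of called genes whose groups did not overlap and whose higher group averaged 5 FPKM or more, up to 3 called members of each of 29 lists per direction, the sort genes and markers, and the 2 most abundant markers of each of 9 other cell lists. Other genes named with values are list members chosen after their values were seen, and some genes the rule gives are not reported here. The members and lists were chosen with earlier results of these data known. Of 878 listed genes 877 were found, some under older symbols. Promoters are from RefSeq (GRCm38.p6).

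The fits were repeated with array weights, a replicate block, a pseudocount of 0.1, a filter of 5 FPKM, no filter, the compared groups alone, median-ratio scaling, quantile normalization, each library left out, and, added after seeing the data, a fit without small RNA genes. Losses given beside single genes are those without a library unless another setting is named. Some of these calls were also lost in other settings. Python 3.11.15, pandas 2.3.3, numpy 2.4.6 and matplotlib 3.10.9 made the figures.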

Additional observations from a re-analysis of the deposited data

How the results depend on the processing

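The count of 1968 genes for Fraction 6 against Fraction 5 stayed within 1.5-fold under scaling, pseudocount, filter, array weights and the compared groups alone, between 1557 and 2398, and leaving out each library gave 1139 to 1821. The count for Fraction 7 against Fraction 6 was 1496 with the compared groups alone and 1330 to 2475 with each library left out. The difference between the steps was called for 644 genes with quantile normalization, 129 with the compared groups alone, 660 with array weights and 51 to 528 with each library left out. The fits of the compared groups alone and those without a library hold fewer samples. For the other settings the cause was not tested. Whether shared replicate numbers mark a pairing is not known. Deviations of same-numbered Fraction 5 and 6 libraries correlated at -0.032 and 0.12. The deviations of the 2 Fraction 6 libraries mirror each other, so these values cannot decide it. With a replicate block the counts were 2076, 2471 and 508. Without small RNA genes they were 2031, 2429 and 473. Of 137 named genes that were called, 102 kept the call in every alternative that tested them, 35 lost it in at least 1 and 0 reversed. The 102 include Mir1940, Mir20a and Snord91a, which passed the filter only through Fraction 6, and Bcl6, on whose reporter the gates were sorted. Those calls were fixed in advance. FPKM keep only relative depth, so no counting error can be given for low genes, and the 2 libraries of Fraction 6 set the precision.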
